A study of Mus musculus with 9 samples.

Results

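The RAB genes encode small GTPases that mark the membranes of the cell, and they were measured here in mouse dendritic cells whose cytosol had received DNA from tumor cells. A gene was counted as a RAB gene where the array's annotation gave a probe set 1 symbol made of Rab, a number and at most 1 letter. This rule found 59 genes on 132 probe sets, of 18193 genes with a probe set of their own. Each gene was represented by its probe set of highest mean level over the 9 arrays, and 50 of the 59 passed the filter on low signals and were tested.

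The cells of all groups came from the bone marrow of 129/SvEv mice and were kept in GM-CSF for 9 to 12 days, which yields dendritic cells together with other myeloid cells. The 3 groups were STING knockout cells given tumor DNA, wild-type cells given tumor DNA, and wild-type cells in media, with 3 arrays each. The DNA was carried in by lipofectamine, a lipid reagent, and RNA was taken after 7 h. STING is the adaptor that relays the detection of cytosolic DNA by cGAS to the kinase TBK1 and the transcription factor IRF3. How the knockout allele was made is not given in the sources used here. No array of knockout cells in media or of cells with lipofectamine only is analysed here, so DNA and reagent cannot be told apart. Whether the numbered samples are different mice or different cultures is not stated in the labels. The p-values therefore measure the spread among these 3 samples per group, and that spread may be technical.

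A RAB protein is a switch. Exchange factors load it with GTP on a given membrane, GTP-bound RABs recruit effectors such as tethers, motors and kinases, GTPase-activating proteins turn the switch off, and GDP-dissociation inhibitors take the lipid-anchored protein back to the cytosol. In dendritic cells RABs route antigen, receptors and cytokines between the surface, endosomes, phagosomes and the Golgi, and STING itself leaves the endoplasmic reticulum in vesicles once it is activated.

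The transcript of the targeted gene separated the genotypes. Sting1 had signals of 246, 336 and 327 in STING knockout cells given DNA, against 2258, 1061 and 1158 in wild-type cells given DNA, a log2 difference of -2.17 ± 0.35 (SE; limma adjusted p = 0.0016). In wild-type cells in media it had 1524, 1081 and 646. Signals are MAS5 intensities that shared 1 trimmed mean on every array, with array medians of 53.7 to 70.9. A spiked hybridisation control gave signals of 406 to 552 on arrays with the number 1, and of 115 to 189 on the other 6. Of the dendritic cell and macrophage markers, 0 of 7 tested passed the test in any comparison, and their summed signal was 65907 to 74161 in STING knockout cells, 71979 to 77351 in wild-type cells under DNA and 69302 to 74073 in media. Markers of other cells did move. Of 6 T and NK cell markers on the array, only 2, Klrk1 and Cd247, passed the filter on low signals and were tested. Both were higher in DNA-treated wild-type cells than in media and lower in the knockout (summed signal of the list 216 to 251 in the knockout, 963 to 1690 in wild type under DNA and 196 to 243 in media). In the knockout 3 of 5 mast cell and basophil markers were also lower (sums 247 to 251 in the knockout, 520 to 1442 in wild type under DNA and 356 to 1074 in media), as was 1 of 7 neutrophil markers, Mpo (sums 34994 to 41801 in the knockout, 24891 to 91228 in wild type under DNA and 17130 to 71159 in media). No marker had a signal of 0. None of the 3 tested B cell markers passed, though the sums of that list did not overlap between the genotypes under DNA (148 to 307 in the knockout, 360 to 2280 in wild type under DNA and 286 to 1247 in media). Of the 3 tested fibroblast markers none passed (sums 865 to 6115 in the knockout, 627 to 4448 in wild type under DNA and 508 to 5248 in media), and the single erythroid marker on the array stayed at 15.0 or below. A change in the number of cells of a type and a change in RNA per cell cannot be told apart here. The part of these cells in the RAB results was not tested.

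In wild-type cells given tumor DNA, 9 of the 50 tested RAB genes rose and 7 fell relative to media, at an adjusted p under 0.05 over all 12586 genes. That is 32% of the RAB genes, against 33.6% of all genes, so the share of RAB genes that changed was near the background. The 9 that rose made up 18% of the RAB genes, where 9.94% of all genes rose, and the 7 that fell made up 14%, where 23.6% of all genes fell. Rab19, Rab22a, Rab20, Rab21, Rab12, Rab29, Rab5a, Rab8b and Rab1a rose. Rab17, Rab3a, Rab31, Rab42, Rab34, Rab40c and Rab14 fell. The median log2 change was 0.11 over the RAB genes and -0.20 over all genes. The groups did not overlap in 17 of the 50 RAB genes (34%), against 46.4% of all genes.

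Without STING, 11 RAB genes were lower and 3 higher than in wild-type cells under the same DNA, 28% of the RAB genes against 31.5% of all genes. The 11 lower made up 22% (background 9.73%) and the 3 higher 6% (background 21.8%). Rab19, Rab38, Rab29, Rab22a, Rab12, Rab21, Rab5c, Rab1a, Rab8b, Rab3d and Rab5a were lower, and Rab31, Rab17 and Rab40c were higher. The median log2 difference was -0.11 over the RAB genes and 0.20 over all genes. The groups did not overlap in 20 of the 50 RAB genes (40%), against 46% of all genes. The 2 comparisons share the wild-type arrays with DNA, so their values stand side by side and are not independent. Passing in both were 11 genes. Rab14, Rab20, Rab34, Rab3a and Rab42 passed with DNA only and Rab38, Rab3d and Rab5c in the knockout only, and the differences between the 2 comparisons were not tested.

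The scaling of the arrays bears on the balance of directions. When each array was centred on the median of the tested probe sets, the median of all genes moved to 0.13 with DNA and to -0.09 in the knockout. The share of higher genes among all that passed then became 61.3% in place of 29.6% with DNA, and 41.5% in place of 69.2% in the knockout. For the RAB genes this centring gave 14 higher and 2 lower with DNA, and 2 higher and 17 lower in the knockout. Arrays were left out 1 at a time unless a number is named. Changes below are on the deposited scale, as log2 differences of signal + 16 with their SE, and are to be read against the medians of all genes.

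**Figure D1:**
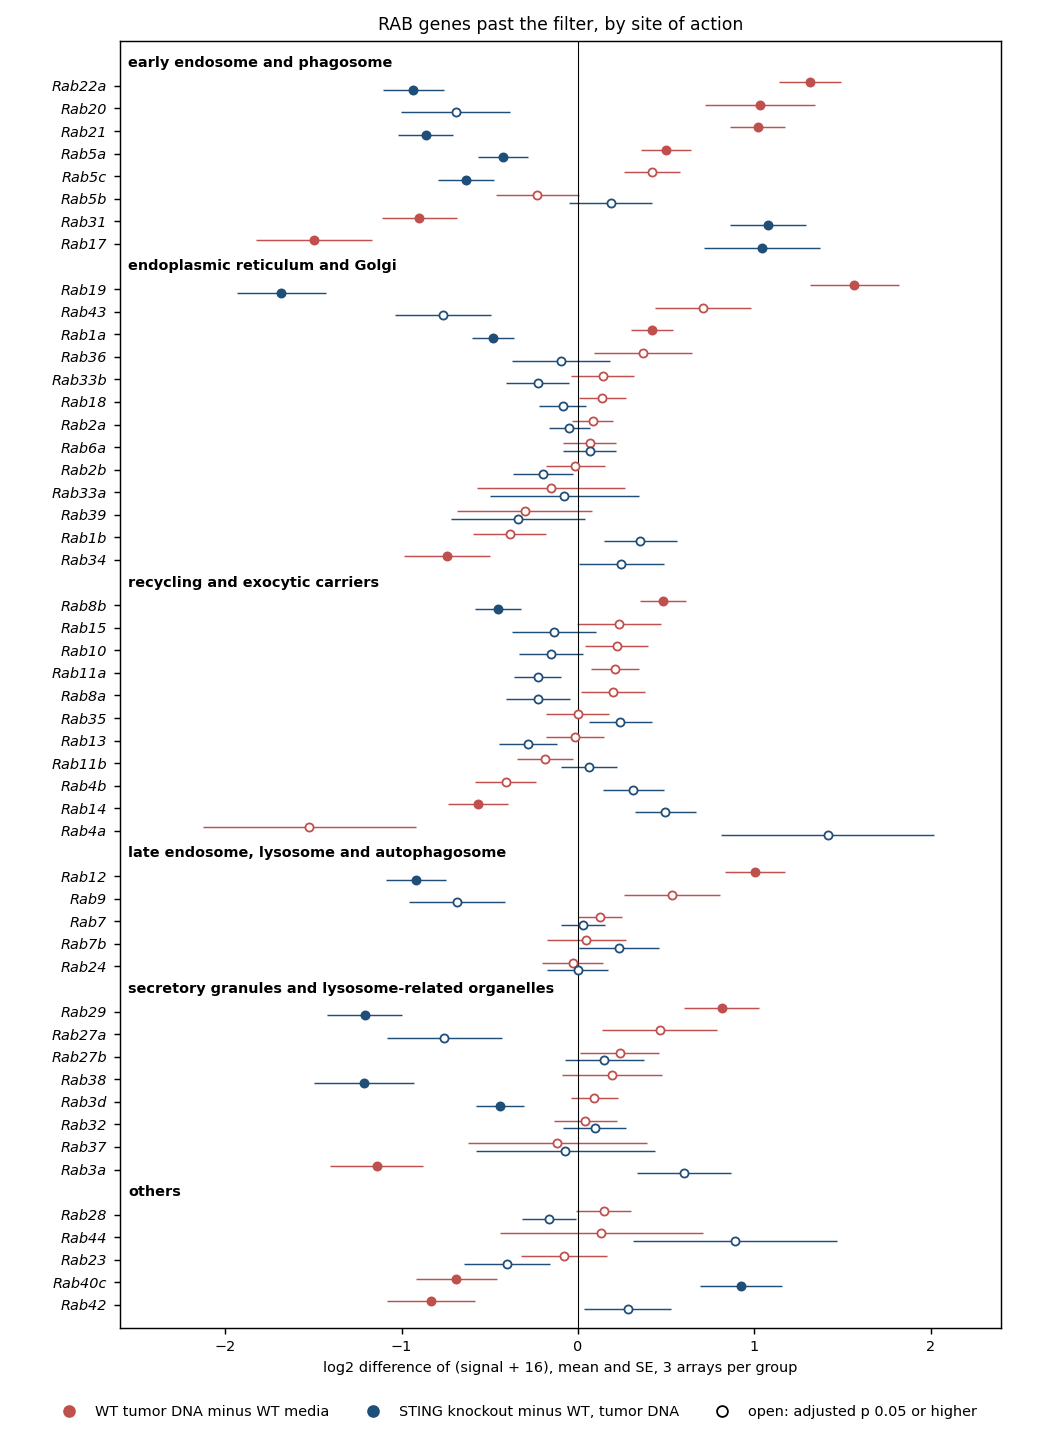
Log2 difference (mean and SE, 3 arrays per group) of the 50 tested RAB genes, grouped by site of action, for wild-type cells given tumor DNA minus media (red) and for STING knockout minus wild-type cells under tumor DNA (blue); open points had an adjusted p of 0.05 or higher. Red and blue points of the genes that changed lie on opposite sides of 0, with Rab19 at 1.57 and -1.68 and Rab31 at -0.90 and 1.08.

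Of the 8 tested RABs of early endosomes and phagosomes, 4 rose and 2 fell with DNA, and in the knockout 4 were lower and 2 higher. That is 75% in each comparison, against 33.6% and 31.5% of all genes. This share counts Rab17, known from recycling endosomes and low in signal, and Rab22a, whose calls rested on 1 probe set, as given below. The shares of the other role groups ran from 18.2% to 40% with DNA and from 9.09% to 37.5% in the knockout. These groups hold 5 to 13 tested genes, were drawn up with earlier results known, and were not tested as groups. The 2 that fell with DNA, Rab31 and Rab17, were the same 2 that were higher in the knockout. Rab22a serves early endosomes and the recycling of MHC class I molecules. Its signals were 859, 1178 and 1007 in STING knockout cells given DNA, 2066, 1783 and 1973 in wild-type cells given DNA, and 642, 832 and 847 in media. The wild-type arrays with DNA lay above all 6 others. Rab22a rose by 1.32 ± 0.17 with DNA (adjusted p = 0.00082) and was lower by 0.93 ± 0.17 in the knockout (log2 difference -0.93, adjusted p = 0.0032). This rested on 1 of its 4 probe sets: the other 3 gave 0.11, 0.15 and -0.21 in the knockout and -0.19, -0.20 and -0.07 with DNA, and over the mean of the probe sets neither comparison passed (adjusted p = 0.26 in the knockout and 0.27 with DNA).

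Rab21, which guides integrins through early endosomes, had signals of 3186, 3906 and 3810 in DNA-treated knockout cells, 5987, 7120 and 6741 in DNA-treated wild-type cells, and 2664, 3529 and 3645 in media. Here too every wild-type array with DNA was above the other 6. The change with DNA was 1.02 ± 0.16 (adjusted p = 0.0015) and the knockout difference -0.86 ± 0.16 (adjusted p = 0.0028), and a second probe set gave 0.93 and -0.76. Without the 3 arrays numbered 3 the knockout difference no longer passed (adjusted p = 0.054). Rab20 acts in the maturation of macrophage phagosomes. It had 1542, 1253 and 1558 in DNA-treated knockout cells, 4178, 1541 and 1998 in DNA-treated wild-type cells, and 1005, 1263 and 1158 in media. Array 1 of the wild-type DNA group stood far above the other 2, and the knockout and wild-type groups overlapped. Rab20 rose by 1.03 ± 0.31 with DNA (adjusted p = 0.028), a call that ended when any 1 of the media arrays was left out (adjusted p up to 0.082), and its knockout difference of -0.69 ± 0.31 did not pass (adjusted p = 0.12).

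The 3 forms of RAB5, the RAB that drives early endosome fusion, are encoded by separate genes. Rab5a had 6314, 4856 and 6026 in DNA-treated knockout cells, 8662, 6871 and 7506 in DNA-treated wild-type cells, and 5741, 5056 and 5417 in media. It rose by 0.50 ± 0.14 with DNA (adjusted p = 0.022) and was lower in the knockout (-0.42 ± 0.14, adjusted p = 0.044). Rab5c had 5038, 5341 and 4923 in DNA-treated knockout cells, 9485, 6880 and 7637 in DNA-treated wild-type cells, and 6832, 6128 and 4965 in media. It was lower in the knockout (-0.64 ± 0.16, adjusted p = 0.013), and its DNA change of 0.42 ± 0.16 passed with the replicate number as a block (adjusted p = 0.026) but not without (adjusted p = 0.065). Rab5b gave -0.23 with DNA and 0.19 in the knockout and passed in neither. These shifts of Rab5a were small: its DNA call ended without array 1 of the wild-type DNA group or array 2 or 3 of the media group (adjusted p up to 0.072), and its knockout call ended without each of 7 arrays, the exceptions being array 2 of the wild-type DNA group and knockout array 1 (adjusted p up to 0.15).

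Rab31 (also RAB22B), the nearest relative of Rab22a, carries cargo from the trans-Golgi to endosomes. Its signals were 2340, 1604 and 2335 in DNA-treated knockout cells, 973, 1205 and 775 in DNA-treated wild-type cells, and 2136, 1664 and 1697 in media, so DNA-treated wild-type cells were the low group. Rab31 fell by 0.90 ± 0.21 with DNA (log2 change -0.90, adjusted p = 0.011) and was higher by 1.08 ± 0.21 in the knockout (adjusted p = 0.0045). The DNA change did not pass once arrays were centred on the tested probe sets (adjusted p = 0.093). Rab17, known from recycling endosomes of epithelial cells, had 50.2, 84.9 and 80.8 in DNA-treated knockout cells, 17.6, 17.4 and 49.5 in DNA-treated wild-type cells, and 113, 92.1 and 102 in media. Its wild-type DNA signals lay below the array medians, where background weighs most. The change with DNA was -1.50 ± 0.33 (adjusted p = 0.0074). The knockout difference of 1.05 ± 0.33 (adjusted p = 0.036) did not pass without array 1 or 2 of the wild-type DNA group, array 2 or 3 of the knockout group, or array 2 or 3 of the media group (adjusted p up to 0.11).

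**Figure D2:**
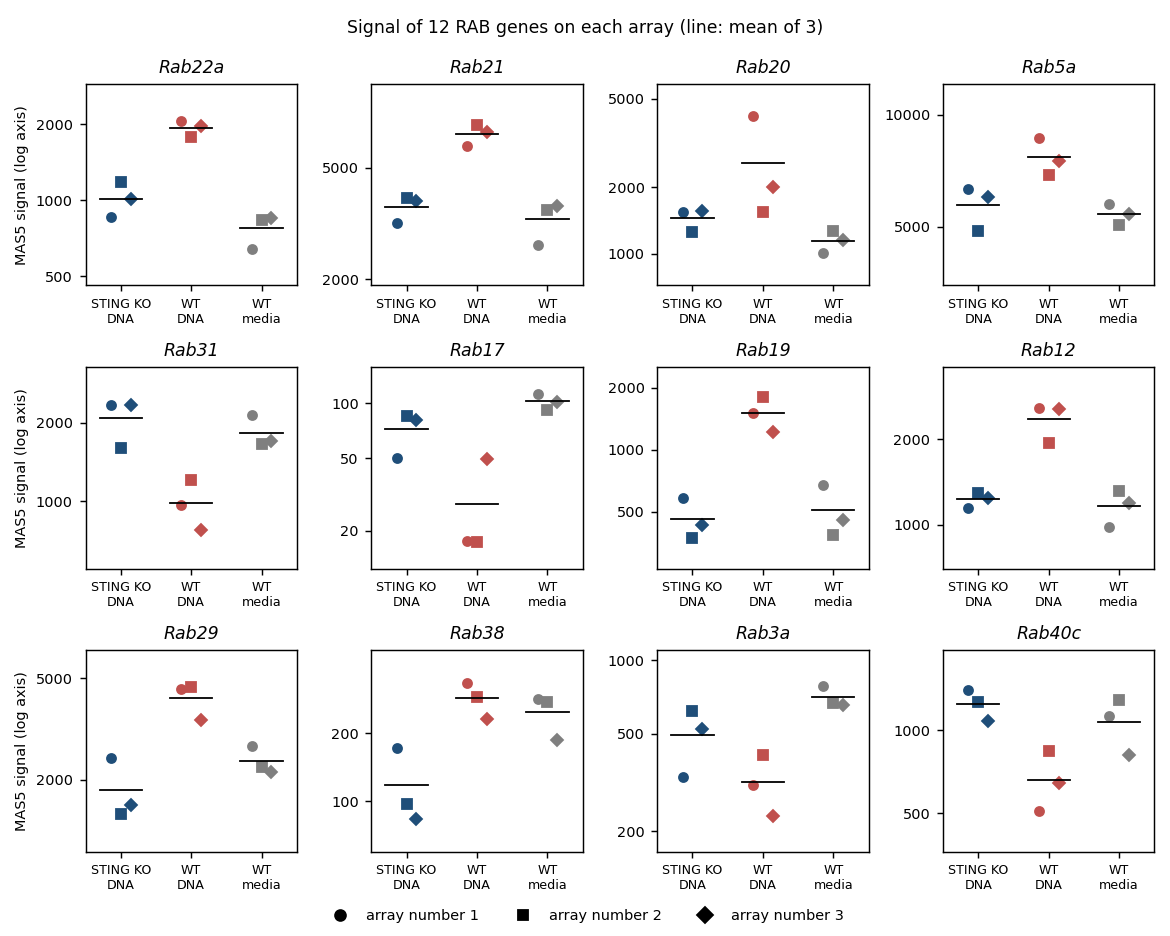
MAS5 signal of 12 RAB genes on each array (log axis, each panel with its own range) in STING knockout cells given tumor DNA, wild-type cells given tumor DNA and wild-type cells in media; symbols mark the array number and lines the mean of 3. For Rab22a, Rab21, Rab5a, Rab19, Rab12 and Rab29 the wild-type arrays with DNA lie above the other 6, and for Rab31 and Rab40c below the knockout arrays.

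By their chosen probe sets, relatives of 1 family could differ in direction. Rab22a and Rab31, a pair set side by side after their values were seen, moved by 1.32 and -0.90 with DNA and by -0.93 and 1.08 in the knockout. Over 13 pairs of paralogs and both comparisons, 26 differences of log2 signal were tested by an exact two-sided permutation test. With 3 arrays against 3 its smallest p is 0.1, or 0.29 after adjustment, so no pair could pass. The groups did not overlap in 3 of the 13 pairs with DNA and in 6 in the knockout. Of single genes 46.4% and 46% did not overlap, and no such share was computed for other gene pairs. Rab22a and Rab31, Rab1a and Rab1b, and Rab3a and Rab3d were the 3 pairs without overlap with DNA. The changes were 0.42 for Rab1a and -0.39 for Rab1b, and -1.14 for Rab3a and 0.09 for Rab3d. These directions depended on the probe set. With DNA the other probe sets gave -0.20 to -0.07 for Rab22a and -0.65 to -0.11 for Rab3d, the sign of their relatives. Those of Rab1a gave 0.12 and -0.08. The other probe set of Rab3a missed the filter on low signals.

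Among the RABs of the endoplasmic reticulum and Golgi, 2 of 13 tested rose with DNA, 1 fell, and in the knockout 2 were lower. Rab19, a Golgi RAB with few known partners, had the largest rise of all RAB genes. Its signals were 585, 370 and 430 in STING knockout cells given DNA, 1502, 1804 and 1223 in wild-type cells given DNA, and 676, 386 and 457 in media. The wild-type DNA arrays were all at least as high as 1223, and the 6 others at most 676. The knockout difference was -1.68 ± 0.25 (3.21-fold lower, adjusted p = 0.0012) and the DNA change 1.57 ± 0.25 (2.96-fold higher, adjusted p = 0.002). Both passed under every alternative run and without any single array or number.

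The promoter of Rab19 was the only one among the RAB promoters to hold the core of an interferon-stimulated response element, GAAA, any 2 bases, GAAA, the motif read by IRF factors and the interferon-activated ISGF3 complex. Promoters were taken from RefSeq (build GRCm38.p6, 250 bases before to 50 after each start), which held 60 promoters of 48 RAB genes. The core, searched on both strands, was in 1 of these 60 and in 3.44% of all 32851 promoters. It is shown because Rab19 moved most and alone carried it, as 2 overlapping matches on the opposite strand (capitals) that begin 10 and 4 bases before the start, at chr6:39381103-39381402 (+ strand).
Rab19: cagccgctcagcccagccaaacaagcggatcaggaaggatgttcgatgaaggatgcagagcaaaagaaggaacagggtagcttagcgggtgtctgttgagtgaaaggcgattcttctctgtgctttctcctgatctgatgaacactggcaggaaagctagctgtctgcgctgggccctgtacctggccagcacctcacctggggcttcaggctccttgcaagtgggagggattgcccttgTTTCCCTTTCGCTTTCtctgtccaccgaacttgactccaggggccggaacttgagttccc
The match describes these letters and no binding was measured.

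Rab1a, which with Rab1b moves vesicles from the endoplasmic reticulum to the Golgi, had signals of 17880, 14609 and 17916 in DNA-treated knockout cells, 25293, 22088 and 22775 in DNA-treated wild-type cells, and 17004, 15991 and 19531 in media. It rose by 0.42 ± 0.12 with DNA (adjusted p = 0.024) and was lower in the knockout (-0.48 ± 0.12, adjusted p = 0.014). Its other 2 probe sets gave 0.12 and -0.08 with DNA and -0.04 and -0.67 in the knockout, and the mean of the 3 did not pass (adjusted p = 0.52 with DNA and 0.1 in the knockout). The DNA call also ended without array 1 of the wild-type DNA group or array 1 or 2 of the media group (adjusted p up to 0.085), and the knockout call without array 1 of the wild-type DNA group (adjusted p = 0.0502). Rab34, which positions lysosomes and serves ciliogenesis, had 446, 454 and 483 in DNA-treated knockout cells, 322, 301 and 588 in DNA-treated wild-type cells, and 724, 572 and 685 in media. Wild-type DNA array 3 overlapped with media. The fall of 0.74 ± 0.24 (log2 change -0.74, adjusted p = 0.039) did not pass when either of arrays 1 and 2 of the wild-type DNA group, knockout arrays 2 and 3 or any media array was left out (adjusted p up to 0.12), and a second probe set gave -0.96. In the knockout Rab34 differed by 0.25 and did not pass.

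Rab43, a Golgi RAB that takes part in cross-presentation by dendritic cells, had signals of 1160, 802 and 978 in DNA-treated knockout cells, 2294, 1664 and 1197 in DNA-treated wild-type cells, and 1291, 1063 and 749 in media. The knockout group lay below the wild-type group with DNA. Its changes of 0.71 ± 0.27 with DNA (adjusted p = 0.071) and -0.77 ± 0.27 in the knockout (adjusted p = 0.057) did not pass, but with the replicate number as a block they did (adjusted p = 0.0096 and 0.0068). Of the 2 other probe sets of Rab43, 1 gave 0.69 with DNA (adjusted p = 0.04 over all probe sets) and -0.40 in the knockout (adjusted p = 0.21), and the other -0.08 and -0.38 (adjusted p = 0.89 and 0.48). Rab1b gave -0.39 with DNA (adjusted p = 0.18, or 0.046 with the block) and 0.35 in the knockout, which passed in neither fit. For the other 8 of this group, Rab36, Rab33b, Rab18, Rab2a, Rab6a, Rab2b, Rab33a and Rab39, the change with DNA lay between -0.30 and 0.37, and the knockout difference between -0.34 and 0.07.

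Another short motif was shared by 3 of the 4 early endosomal genes that rose, and Rab22a did not hold it. CACGTG, the E-box read by MYC, TFEB and MITF family factors, occurred in 6 of 60 RAB promoters (10%), against 7.15% of all promoters, and in the promoters of 3 of the 9 RAB genes that rose with DNA: Rab5a, Rab20 and Rab21. The 3 promoters are printed so that the place of the motif (capitals) can be compared. They lie at chr17:53478984-53479283 (+ strand), chr8:11478591-11478890 (- strand) and chr10:115315542-115315841 (- strand), each written along the gene's own strand.
Rab5a: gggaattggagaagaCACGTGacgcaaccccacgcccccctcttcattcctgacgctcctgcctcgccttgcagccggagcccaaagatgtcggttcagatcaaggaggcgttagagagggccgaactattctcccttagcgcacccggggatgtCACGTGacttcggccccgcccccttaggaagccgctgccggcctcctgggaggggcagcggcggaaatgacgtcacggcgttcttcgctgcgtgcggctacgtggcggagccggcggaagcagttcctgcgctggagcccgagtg
Rab20: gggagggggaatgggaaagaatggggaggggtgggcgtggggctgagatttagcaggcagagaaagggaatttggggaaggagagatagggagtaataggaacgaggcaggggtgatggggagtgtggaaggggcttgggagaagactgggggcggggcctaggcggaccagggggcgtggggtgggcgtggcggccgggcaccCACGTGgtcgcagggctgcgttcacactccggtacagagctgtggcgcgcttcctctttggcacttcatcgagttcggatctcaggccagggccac
Rab21: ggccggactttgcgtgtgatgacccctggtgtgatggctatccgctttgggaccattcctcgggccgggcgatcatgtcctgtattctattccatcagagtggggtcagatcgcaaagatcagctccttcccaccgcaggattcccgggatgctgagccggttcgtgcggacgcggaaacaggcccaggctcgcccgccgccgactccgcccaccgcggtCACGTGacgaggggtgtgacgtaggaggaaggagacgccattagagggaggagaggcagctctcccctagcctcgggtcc
The motif began 235 and 95 bases before the start in Rab5a, 46 before it in Rab20 and 30 before it in Rab21. Rab23, Rab24 and Rab27a also held it, and none of the 3 passed in either comparison. No binding to the motif was measured, and a shared control of these genes was not tested. The GAS motif TTCNNNGAA was in 5 of the 60 promoters (8.33%, against 8.3% of all), and the kappaB motif in 3 (5%, against 8.46%).

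Of the RABs that act in recycling and exocytic carriers, 11 were tested, 1 rose and 1 fell with DNA, and 1 was lower in the knockout. Rab8b, which sends carriers from the trans-Golgi and recycling endosomes to the surface, had signals of 17150, 13240 and 15672 in DNA-treated knockout cells, 22892, 19737 and 20188 in DNA-treated wild-type cells, and 17122, 13767 and 14136 in media. Its wild-type DNA arrays were the 3 highest. Rab8b rose by 0.48 ± 0.13 with DNA (adjusted p = 0.019) and was lower in the knockout (-0.45 ± 0.13, adjusted p = 0.026). The DNA call ended without array 1 of the wild-type DNA group or array 2 or 3 of the media group (adjusted p up to 0.067) and the knockout call without array 1 of the wild-type DNA group or array 2 or 3 of the knockout group (adjusted p up to 0.091). Rab8a, its paralog, gave 0.20 with DNA and -0.23 in the knockout and passed in neither.

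Rab14, which works between the trans-Golgi and early endosomes, had 15810, 12492 and 13970 in DNA-treated knockout cells, 8300, 10122 and 11702 in DNA-treated wild-type cells, and 14866, 12162 and 17685 in media. The wild-type DNA arrays were the 3 lowest. It fell by 0.57 ± 0.17 with DNA (log2 change -0.57, adjusted p = 0.029), and the knockout difference of 0.50 ± 0.17 missed the threshold (adjusted p = 0.051) but passed with the replicate block (adjusted p = 0.02). The DNA call ended without array 1 or 2 of the wild-type DNA group or array 1 or 3 of the media group (adjusted p up to 0.1) and when arrays were centred on the tested probe sets (adjusted p = 0.38). Its 6 other probe sets gave -1.09 to -0.09 with DNA, all of 1 sign.

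Rab4a, of the fast recycling route, had low signals of 100, 125 and 233 in DNA-treated knockout cells, 3.28, 78 and 103 in DNA-treated wild-type cells, and 133, 146 and 196 in media. Wild-type DNA array 1 stood near 0. Its changes of -1.52 ± 0.60 with DNA (adjusted p = 0.079) and 1.42 ± 0.60 in the knockout (adjusted p = 0.1) were large but passed only with the replicate block (adjusted p = 0.016 and 0.023). Rab4b gave -0.41 and 0.32. The recycling endosome RABs Rab11a and Rab11b, and Rab10, Rab13, Rab15 and Rab35, lay between -0.19 and 0.23 with DNA and between -0.28 and 0.24 in the knockout by their chosen probe sets, which did not pass. The 2 other probe sets of Rab11b gave larger falls with DNA, of -1.13 ± 0.25 (adjusted p = 0.0072 over all probe sets) and -0.93 ± 0.32 (adjusted p = 0.037), and 0.91 (adjusted p = 0.019) and 0.66 (adjusted p = 0.13) in the knockout. Over the mean of its probe sets Rab11b passed with DNA.

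Late endosomal, lysosomal and autophagic RABs gave 1 change in each comparison among 5 tested, and both were of Rab12, which sends receptors to lysosomes for degradation and takes part in autophagy. Its signals were 1149, 1296 and 1241 in STING knockout cells given DNA, 2565, 1945 and 2547 in wild-type cells given DNA, and 982, 1313 and 1196 in media. No wild-type DNA array fell below 1945, and no other array rose above 1313. Rab12 rose by 1.0 ± 0.17 with DNA (adjusted p = 0.0023) and was lower in the knockout (-0.92 ± 0.17, adjusted p = 0.003). Without the 3 arrays numbered 3 neither passed (adjusted p = 0.056 with DNA and 0.075 in the knockout), and a second probe set gave 0.33 and -1.0.

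Rab9, which returns receptors from late endosomes to the trans-Golgi, had 2998, 1719 and 2079 in DNA-treated knockout cells, 5091, 2768 and 3208 in DNA-treated wild-type cells, and 3106, 2131 and 2238 in media. On each number the wild-type DNA array was the highest, but the groups overlapped. The change with DNA was 0.53 ± 0.27 (adjusted p = 0.16) and the knockout difference -0.69 ± 0.27 (adjusted p = 0.081), and with the replicate block both passed (adjusted p = 0.0049 and 0.0014). Rab7, the main RAB of late endosomes and lysosomes, gave 0.12 ± 0.12 and 0.03 ± 0.12 by its chosen probe set, and a second probe set gave 0.44 ± 0.13 with DNA (adjusted p = 0.017 over all probe sets) and -0.25 ± 0.13 in the knockout (adjusted p = 0.13). Rab7b and the autophagy-linked Rab24 gave 0.05 and -0.03 with DNA and 0.23 and 0.00 in the knockout.

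In the group of secretory granules and lysosome-related organelles, 1 of 8 tested rose and 1 fell with DNA, and 3 were lower in the knockout. Rab29, which brings the kinase LRRK2 to Golgi and lysosomal membranes, had signals of 2435, 1468 and 1592 in DNA-treated knockout cells, 4521, 4606 and 3434 in DNA-treated wild-type cells, and 2705, 2251 and 2138 in media. All wild-type DNA arrays were above the rest. It was lower in the knockout by 1.21 ± 0.21 (log2 difference -1.21, adjusted p = 0.0023), a difference that passed under every alternative run and without any array or number. Its rise with DNA of 0.81 ± 0.21 (adjusted p = 0.015) did not pass without array 1 of the wild-type DNA group or array 3 of the media group (adjusted p up to 0.051).

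Rab38, which with Rab32 builds melanosomes and related organelles, had 173, 97.3 and 83.9 in DNA-treated knockout cells, 335, 291 and 231 in DNA-treated wild-type cells, and 285, 275 and 187 in media. Here the knockout group was low and the wild-type groups overlapped. The knockout difference was -1.21 ± 0.28 (adjusted p = 0.0095) and the DNA change 0.19 ± 0.28 (adjusted p = 0.64). Without the arrays of any 1 number the knockout difference did not pass (adjusted p up to 0.11). The second probe set gave -1.01 in the knockout and 1.04 with DNA (limma adjusted p = 0.017 and 0.015 over all probe sets). Whether Rab38 changed with DNA thus depended on the probe set. Rab32 gave 0.09 in the knockout and 0.04 with DNA.

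Rab3d and Rab3a serve regulated exocytosis. Rab3d had 1328, 1517 and 1204 in DNA-treated knockout cells, 1843, 1838 and 1812 in DNA-treated wild-type cells, and 1665, 1738 and 1743 in media. Its knockout difference of -0.44 ± 0.13 (adjusted p = 0.031) did not pass when 1 array of the wild-type DNA group, whichever, or knockout array 1 or 3 was dropped (adjusted p up to 0.13), and its 3 other probe sets gave -0.08 to 0.11. Rab3a had 333, 620 and 524 in DNA-treated knockout cells, 310, 411 and 231 in DNA-treated wild-type cells, and 785, 667 and 658 in media. The media arrays were the 3 highest and the other groups overlapped. Rab3a fell by 1.14 ± 0.26 with DNA (log2 change -1.14, adjusted p = 0.0094), and the knockout difference of 0.60 ± 0.26 did not pass (adjusted p = 0.11). These values rest on a probe set whose suffix marks probes that may also match other transcripts. The other probe set of Rab3a missed the filter, with mean signals of 9.72, 9.21 and 32.1 in the same order of groups. Rab27a, which docks secretory granules, had 245, 211 and 154 in DNA-treated knockout cells, 477, 317 and 280 in DNA-treated wild-type cells, and 412, 176 and 210 in media. Its knockout difference of -0.76 ± 0.33 passed with the replicate block (adjusted p = 0.014) and not without (adjusted p = 0.11). Rab27b and Rab37 passed in neither comparison, with values of -0.12 to 0.24.

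Of the 5 remaining RAB genes tested, Rab40c and Rab42 fell with DNA, and Rab40c was higher in the knockout. Rab40c, part of a ubiquitin ligase through its SOCS box, had 1402, 1271 and 1082 in DNA-treated knockout cells, 507, 839 and 641 in DNA-treated wild-type cells, and 1124, 1290 and 810 in media. Knockout arrays were all above wild-type arrays with DNA, whose array 2 reached above the lowest media array. The knockout difference was 0.92 ± 0.23 (adjusted p = 0.014). The fall with DNA (-0.69 ± 0.23, adjusted p = 0.044) did not pass when any 1 array but array 2 of the wild-type DNA group or array 3 of the media group was left out (adjusted p up to 0.15). Rab42 had 53.8, 53.4 and 41.2 in DNA-treated knockout cells, 33.5, 41.9 and 37.8 in DNA-treated wild-type cells, and 70.1, 74.8 and 95.7 in media, all near or below the array medians but for the media arrays. Its fall (-0.83 ± 0.25, adjusted p = 0.028) did not pass without array 1 or 3 of the wild-type DNA group or any media array (adjusted p up to 0.095). Rab23, a regulator of hedgehog signalling, Rab28 and Rab44 passed in neither comparison. The 9 untested genes, Rab25, Rab26, Rab30, Rab39b, Rab3b, Rab3c, Rab40b, Rab6b and Rab9b, had signals of 1.38 to 71.3 on all arrays.

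Smaller changes also ended under other settings. With DNA these were Rab1a under 5 settings (adjusted p up to 0.52), Rab14 under median centring or without a variance trend (up to 0.061) beside the centring named above, Rab5a under quantile normalization or median centring (adjusted p up to 0.091), Rab8b under either or without a variance trend (up to 0.11), Rab20 under median centring or with only the 6 arrays of the comparison (up to 0.052), Rab34 under 4 settings (up to 0.22), Rab40c under 6 (up to 0.21) and Rab42 under 2 (up to 0.15). In the knockout they were Rab1a under 3 settings (up to 0.1), Rab5a under 5 settings (up to 0.17), Rab8b under 4 (up to 0.16), Rab3d under 3 (up to 0.74), Rab17 under 3 (up to 0.11), Rab5c under quantile normalization (0.055) and Rab40c over the mean of probe sets (0.077). When the 3 arrays of any 1 number were left out together, Rab19, Rab21 and Rab22a passed each time with DNA, and Rab19 and Rab29 in the knockout.

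The probe sets of a gene did not always move together. Of the 59 genes, 38 had several probe sets. Among the genes that passed and had other probe sets past the filter, 8 in each comparison, those probe sets all had the sign of the chosen one in 6 with DNA and in 6 in the knockout. The exceptions were Rab22a and Rab1a with DNA, and Rab22a and Rab3d in the knockout. The chosen probe sets of Rab14, Rab4a, Rab27b and Rab3a carry suffixes that mark probes which may also match other transcripts.

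**Figure D3:**
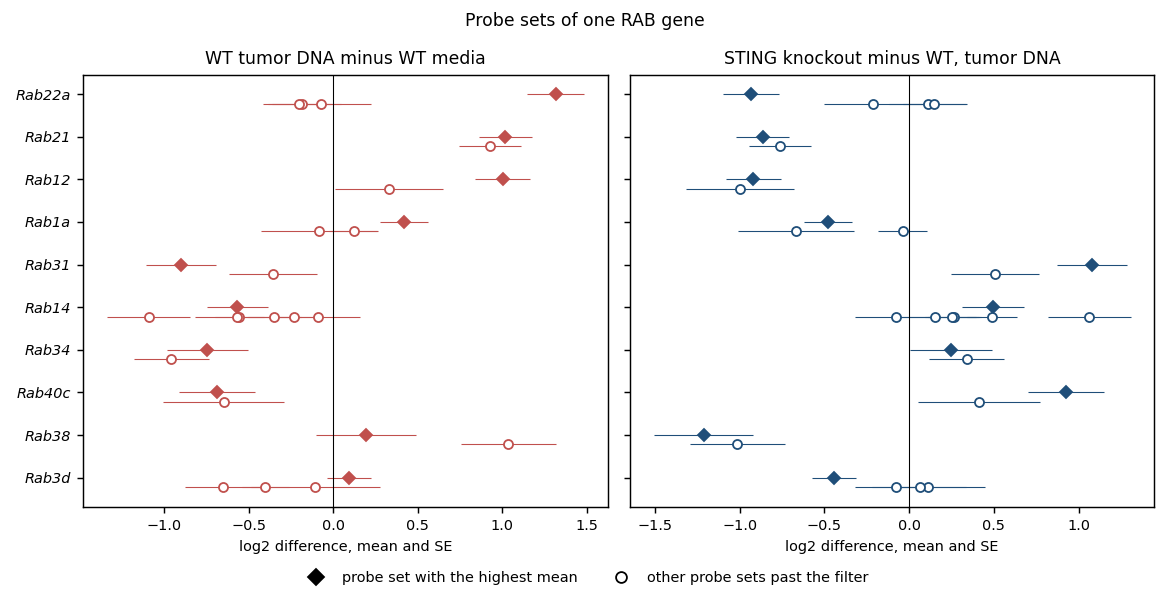
Log2 difference (mean and SE) of the chosen probe set (diamonds) and of the other probe sets past the filter (open circles) for 10 RAB genes, for wild-type cells given tumor DNA minus media (left) and STING knockout minus wild-type cells under tumor DNA (right). The 2 probe sets of Rab21 lie together, at 1.02 and 0.93 with DNA, while 3 of the 4 of Rab22a lie near 0.

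STING knockout cells given DNA were then set against wild-type cells in media, a comparison in which genotype and treatment both differ. None of the 50 RAB genes passed by limma, where 0.429% of all genes did, and 2, Rab38 and Rab3d, had an unadjusted p under 0.05. The differences ran from -1.02 for Rab38 to 1.02 for Rab44, with a median of -0.04 and a lowest adjusted p of 0.3. The 95% interval, not adjusted for the number of genes, reached 0.434 to each side in the median gene and 1.35 in the widest. Differences of that size could not be seen. Larger ones could be missed too, since the p-values were adjusted over all genes: Rab38, at -1.02, had an adjusted p of 0.3. With the replicate block Rab38 passed (-1.02 ± 0.19, adjusted p = 0.04). This rested on its chosen probe set: the second gave 0.02 ± 0.28 without the block (limma adjusted p = 0.995 over all probe sets).

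Among the genes that fit RAB proteins with their lipid anchor and carry them to and from membranes, no change with DNA was upward on the deposited scale. Of 7 tested escort, prenylation and GDP-release genes, 4 fell (57.1%, against 23.6% of all genes) and 0 rose, and in the knockout 3 were higher (42.9%, against 21.8%) and 0 lower. Of these, Chml and Rabif did not pass over the mean of their probe sets, as given below. The median change of the list was -0.54 with DNA and 0.73 in the knockout, against -0.20 and 0.20 over all genes. Rabggtb encodes the catalytic subunit of the enzyme that attaches the lipid anchor. It had signals of 1718, 1533 and 1918 in DNA-treated knockout cells, 790, 820 and 876 in DNA-treated wild-type cells, and 1651, 2008 and 1988 in media. The wild-type DNA arrays were at most 876 and the rest at least 1533. Rabggtb fell by 1.16 ± 0.15 with DNA (log2 change -1.16, adjusted p = 0.00073) and was higher in the knockout (1.04 ± 0.15, adjusted p = 0.00094). Chml, a RAB escort protein, gave -1.54 ± 0.22 with DNA and 1.52 ± 0.22 in the knockout, but its other probe set gave 0.58 and -0.48, and the mean of both did not pass (adjusted p = 0.39 and 0.36). Rabif (MSS4) gave -0.54 and 0.73, and its DNA call ended without array 2 or 3 of the wild-type DNA group or array 2 of the media group (adjusted p up to 0.1) and, like its knockout call, over the mean of probe sets (adjusted p = 0.79 with DNA and 0.34 in the knockout). Rabac1, which releases RABs from GDP-dissociation inhibitors, fell with DNA (-0.48, adjusted p = 0.015, or 0.053 without array 1 of the media group) and did not pass in the knockout (0.20, adjusted p = 0.24). Its DNA call also ended under centring on the tested probe sets (adjusted p = 0.5), as did the DNA and knockout calls of Rabif.

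Exchange factors moved both ways: of 31 tested, 6 rose and 6 fell with DNA, and 7 were lower and 5 higher in the knockout. The 12 that passed in each made up 38.7%, near the 33.6% and 31.5% of all genes. Their median change was -0.18 with DNA and 0.15 in the knockout. Dennd3, an exchange factor for Rab12, had 953, 694 and 720 in DNA-treated knockout cells, 4350, 2667 and 3024 in DNA-treated wild-type cells, and 910, 793 and 1034 in media. Every wild-type DNA array had 2667 or more and every other array 1034 or less. It rose by 1.83 ± 0.21 with DNA (adjusted p = 0.00051) and was lower in the knockout (-2.05 ± 0.21, adjusted p = 0.00024). Rin2 and Rin3 both act on RABs of the RAB5 family, and Rin3 also on Rab31. Rin2 rose with DNA (1.12, knockout -1.11), and Rin3 fell (-1.73, knockout 1.67), as did Rab3il1 (-2.0, knockout 2.17), an exchange factor for the RAB8 group.

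The GTPase-activating proteins, which share the TBC domain for the most part, gave 5 rises and 8 falls among 33 tested with DNA, and 9 higher and 4 lower in the knockout. The 13 in each made up 39.4%, against 33.6% and 31.5% of all genes. Their median was -0.43 with DNA and 0.21 in the knockout. Tbc1d24 had the smallest adjusted p of this list, with 681, 633 and 724 in DNA-treated knockout cells, 130, 196 and 176 in DNA-treated wild-type cells, and 560, 560 and 635 in media. It changed by -1.73 ± 0.18 with DNA and by 1.94 ± 0.18 in the knockout. Its other probe sets gave -1.20 and -0.08 with DNA and 1.07 and 0.12 in the knockout. Tbc1d5, known for acting on RAB7 with retromer, fell with DNA (-1.17) and was higher in the knockout (0.69), where the call ended without array 1 of the wild-type DNA group or knockout array 1 (adjusted p up to 0.072). Evi5, a partner of RAB11, did likewise (-1.17 and 0.77), and its knockout call ended without 6 of the 9 arrays, the exceptions being arrays 2 and 3 of the wild-type DNA group and knockout array 1 (adjusted p up to 0.12). Tbc1d17 gave -1.06 and 1.25. Tbc1d13 (0.94 and -1.06) and Rabgap1l (0.72 and -0.96) rose with DNA and were lower in the knockout. Of the 4 other probe sets of Rabgap1l, 2 gave the opposite sign to the chosen one in both comparisons. Over the mean of probe sets neither Rabgap1l (adjusted p = 0.22 with DNA and 0.11 in the knockout) nor Tbc1d5 (0.16 and 0.58) passed, and centring or quantile normalization ended the DNA call of Tbc1d17 (adjusted p up to 0.083).

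Effectors held the largest changes of the 4 lists. Of 43 tested, 6 rose and 9 fell with DNA, and 6 were lower and 9 higher in the knockout, 34.9% in each, near the share of all genes. The median was -0.12 with DNA and 0.20 in the knockout. Lrrk2 encodes a kinase that phosphorylates several RABs, among them RAB8A, RAB10, RAB12 and RAB29, and Rilpl1 a protein that binds RAB8 and RAB10 once they are phosphorylated. Lrrk2 had 299, 319 and 226 in DNA-treated knockout cells, 2142, 1661 and 1465 in DNA-treated wild-type cells, and 473, 428 and 405 in media. Rilpl1 had 318, 143 and 167 in DNA-treated knockout cells, 3020, 2865 and 2082 in DNA-treated wild-type cells, and 370, 211 and 274 in media. In both genes the wild-type DNA arrays were far above all others. The changes of Lrrk2 were 1.96 ± 0.20 with DNA (adjusted p = 0.0003) and -2.57 ± 0.20 in the knockout (adjusted p = 6.2e-05), and those of Rilpl1 were 3.17 ± 0.31 (adjusted p = 0.00025) and -3.63 ± 0.31 (adjusted p = 9.1e-05). Both held under every alternative run, and a second probe set of Rilpl1 gave 3.46 and -3.74. With Rab29, Rab12 and Dennd3, they formed a set of 5 genes that rose with DNA and were lower without STING, picked out here after their values were seen. The transcripts of Rab8a and Rab10 passed in neither comparison.

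Of the other named effectors, Rab11fip5 and Rab11fip1 both bind RAB11. Rab11fip5 fell with DNA (-1.72, knockout 1.35) and Rab11fip1 rose (1.39, knockout -1.01, the second not passing over the mean of probe sets, adjusted p = 0.09). Ankfy1, an effector of RAB5, rose (0.88, knockout -1.02), and the dynein adaptor Bicd2, which binds RAB6, fell (-0.92, knockout 1.0). In the comparison of DNA-treated knockout cells against wild-type media, 0 genes of each of the 4 lists passed by limma, with 1, 2, 4 and 3 at an unadjusted p under 0.05 for the escort list, exchange factors, GTPase-activating proteins and effectors.

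**Figure D4:**
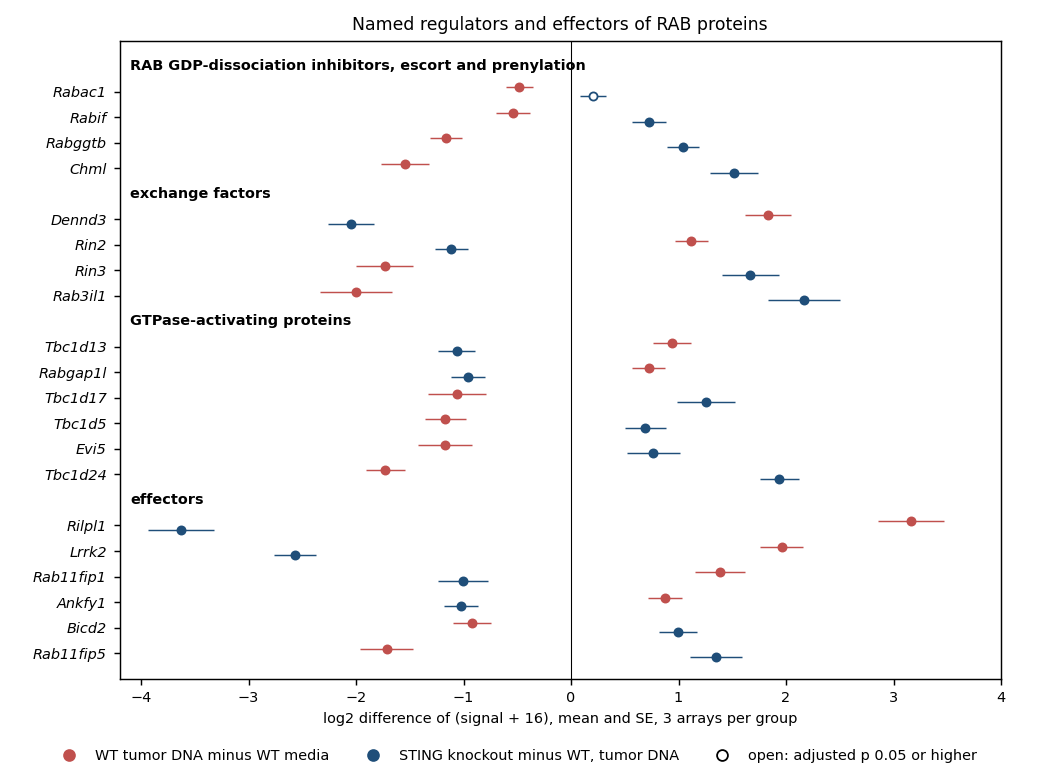
Log2 difference (mean and SE, 3 arrays per group) of the named regulators and effectors for wild-type cells given tumor DNA minus media (red) and STING knockout minus wild-type cells under tumor DNA (blue); the open point had an adjusted p of 0.05 or higher. Rilpl1 lies at 3.17 and -3.63 and Lrrk2 at 1.96 and -2.57, the widest spread, while Rab3il1 and Tbc1d24 lie on the other side, at -2.0 and -1.73 with DNA.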

How the data were processed

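Messenger RNA was measured on 9 Affymetrix mouse arrays. The deposited values are linear signal intensities made by the authors with MAS5, as the submitters' processing notes name it; version and parameters are not given in the sources read, and detection calls were not used. Of 45101 probe sets 64 were controls. Probe sets were named by GEO's platform annotation: 34945 had 1 symbol, 932 several and 9160 none. All 59 RAB genes were found in RefSeq by gene ID, and 0 symbols had changed.

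Values were taken as log2(signal + 16). The probe set of highest mean stood for each gene. Genes with a mean above the 40th percentile of all probe sets (5.67) were fitted with limma 3.58.1 in R 4.3.3 (lmFit, eBayes with a variance trend) over all 9 arrays, with 3 comparisons, and Benjamini-Hochberg adjusted p-values cover all 12586 genes. The labels state no test. Fits were tested on simulated data. The number of arrays limits the precision. The labels number the samples 1 to 3 in each group. Arrays of the same number deviated together from their group means (correlation 0.17 to 0.49 over 9 pairs, against -0.42 to 0.14 over 18 pairs of different numbers). The main fit held group means only and left this pairing out. An alternative fit took the number as a block, and blocked values stand beside results whose call they change.

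The members, role groups, regulator lists and markers were chosen with earlier results of these data known. Per-array values are given for RAB genes that passed with a change of at least 1 on the log2 scale, and for others chosen after their values were seen; from each regulator list the 4 passing genes of smallest adjusted p per comparison are named. Alternatives were other offsets, filters, normalizations, centrings, the mean of probe sets, no variance trend, only the 6 arrays of a comparison, the replicate block, and leaving out each array. Leaving out the 3 arrays of a number and centring on the tested probe sets were chosen after seeing the data.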

Additional observations from a re-analysis of the deposited data

How the results depend on the processing

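On the deposited scale 9 RAB genes rose and 7 fell with tumor DNA, and 11 were lower and 3 higher in the knockout; no named gene that passed turned direction under any alternative run. Median centring gave 5 rises with DNA and 7 lower in the knockout. Centring on the tested probe sets, added after seeing the data, gave 14 rises and 2 falls with DNA and 17 lower in the knockout. Only the 6 arrays of the comparison gave 4 falls with DNA. The replicate block gave 12 rises and 9 falls with DNA (42% of the RAB genes, against 44.8% of all genes). In the knockout it gave 5 higher and 14 lower (38%, against 43%). For the knockout with DNA against media it gave 1 lower RAB gene, Rab38 (2%, against 1.4%). Every RAB gene that passed without the block, 16 and 14, passed with it. When 1 array or the 3 arrays of 1 number were left out, the rises with DNA numbered 3 to 10, the falls 1 to 6, the higher genes in the knockout 0 to 5 and the lower 2 to 11, and 0 passed for the knockout with DNA against media. Of the 16 genes that passed with DNA, 6 did so under all other alternatives and 7 without any single array; Rab19 and Rab21 passed in every fit. Of the 14 in the knockout, 6 and 9 did, and Rab19 and Rab29 passed in every fit. Over all genes, leaving out the arrays numbered 3 gave 475 higher and 1014 lower with DNA (from all arrays 1251 and 2973) and 846 higher and 522 lower in the knockout (2746 and 1224), and leaving out those numbered 2 gave 783 and 1623, and 1446 and 809. Centring on the tested probe sets gave 2146 higher and 1352 lower with DNA and 1362 and 1923 in the knockout. For the knockout with DNA against media the block gave 86 higher and 90 lower over all genes, in place of 21 and 33. Apart from the centring and fewer arrays, the cause of these shifts was not tested. Signals near the array medians cannot be told from background, which limits Rab17, Rab37, Rab39, Rab42 and the 9 untested genes.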
